A study of Mus musculus with 34 samples.

Results

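The 9 genes described here are regulators and effectors of the ATF4 stress response in mouse interneurons: the transcription factors Atf4, Atf5 and Ddit3, the feedback and inhibitory genes Trib3, Ppp1r15a, Ddit4 and Sesn2, and the effector enzymes Chac1 and Asns. They were found by symbol in the deposited gene tables, which list 24371, 11808, 53465, 53465 and 53465 genes for batches 1 to 5. Batches 1, 3, 4 and 5 list 9 of the 9 members, and Trib3 is not analysed here in batch 2, where the other 8 are listed. The set was picked because several of its members were higher in PV interneurons of Nr4a1 conditional knockout (cKO) mice than in those of home cage controls. The values of that comparison are therefore given as a description, with no p.

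ATF4 is a transcription factor whose mRNA is translated more when kinases that sense amino acid shortage, misfolded protein, heme shortage or double-stranded RNA phosphorylate the initiation factor eIF2 and general translation slows. ATF4 pairs with C/EBP family proteins at composite sites in its target genes, which serve amino acid synthesis and uptake, tRNA charging, redox balance and, under lasting stress, cell death. In the brain the pathway is known for its part in memory, in myelin disorders and in neurodegeneration.

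The study measured ribosome-associated mRNA by RiboTag, in which Cre recombinase switches on an epitope-tagged copy of the ribosomal protein Rpl22 so that ribosomes of the Cre-expressing cells can be pulled down. The animals were mice labelled C57/BL6 of postnatal day 60, with cortex and hippocampus as the labelled tissue. In batch 1, PV:Cre/Ribotag mice received the convulsant pentylenetetrazole (PTZ; 4 libraries) or saline (3 libraries). In batch 2, Sst:Cre/Ribotag mice received PTZ (3 libraries) or saline (4 libraries), and PV:Cre/Ribotag mice received saline (2 libraries). Batch 3 held 3 libraries each of PV:Cre/Ribotag mice after contextual fear conditioning (CFC), of PV:Cre/Nr4a1-f/f/Ribotag mice (PV cKO, home cage) and of PV:Cre/Ribotag mice in the home cage. Batch 4 held 3 libraries each of Sst:Cre/Ribotag mice after CFC and in the home cage, and batch 5 held 3 libraries of Sst:Cre/Nr4a1-f/f/Ribotag mice (SST cKO, home cage). All 11 groups carry the RiboTag allele and a Cre driven by Pvalb or Sst, and in the cKO mice the floxed Nr4a1 gene is the target of that Cre. The labels do not say that the libraries come from separate animals, so the p-values rest on variation among these libraries that may be technical.

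Library totals ran between 4933110 and 27282912 counts over the 34 libraries, and PV home cage replicate 3 had the lowest total of batch 3 (10096035). Nr4a1, an activity-induced nuclear receptor and the targeted gene, had 6.67, 16.4 and 7.65 counts per 1000000 (CPM) in the PV cKO libraries, against 5.07, 7.42 and 11.7 CPM in PV home cage libraries. It had 14.2, 11.3 and 17.5 CPM in SST cKO libraries, against 23.8, 15.3 and 13.9 CPM in SST home cage libraries. The groups overlapped in both pairs, and gene-level counts taken over the whole gene do not check a partial deletion. Pvalb, whose promoter drives Cre in the PV mice, had 1052.5, 1344.6 and 156 CPM in PV cKO libraries, against 155, 190.3 and 163 CPM in PV home cage libraries, so PV cKO replicates 1 and 2 stood far above the rest. Sst was not lower than Pvalb in every PV library: it was between 125 and 464 CPM in PV home cage libraries, and in the PV saline libraries of batch 1 it had 38.0 to 62.3 CPM beside 15.9 to 22.1 CPM of Pvalb. In SST libraries of the home cage, Sst had 5515 CPM or more and Pvalb 485 CPM or less. In such bulk pull-downs, fewer cells of a type and less RNA per cell cannot be told apart.

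Promoter sequences of the members are shown because several hold a letter match to the kind of composite site that ATF4 binds. Each window ran from 250 bases before to 50 bases after a start site annotated by RefSeq on GRCm38.p6, and the 9 members had 10 such windows because Atf5 has 2. The C/EBP-ATF response element was searched as TGATGNAA on both strands, the cyclic AMP response element as TGACGTCA and the NR4A monomer element as AAAGGTCA. In the lines that follow, given 5′ to 3′ on the gene's strand, capitals mark the match to TGATGNAA in Chac1, Asns and Trib3, where Chac1 and Trib3 match on the opposite strand, and the match to TGACGTCA in Ppp1r15a.
Chac1, chr2:119350992-119351116, plus strand: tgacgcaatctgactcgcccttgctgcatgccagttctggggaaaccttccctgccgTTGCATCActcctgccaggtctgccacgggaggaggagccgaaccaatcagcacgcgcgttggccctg
Asns, chr6:7693225-7693292, minus strand: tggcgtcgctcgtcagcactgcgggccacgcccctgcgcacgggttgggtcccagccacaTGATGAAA
Trib3, chr2:152344031-152344106, minus strand: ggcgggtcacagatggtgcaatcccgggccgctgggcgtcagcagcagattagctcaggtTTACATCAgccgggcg
Ppp1r15a, chr7:45526269-45526340, minus strand: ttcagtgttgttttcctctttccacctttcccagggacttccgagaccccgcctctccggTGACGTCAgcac

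The C/EBP-ATF match began 193 bases before the start site in Chac1, 23 bases before it in Asns and at base 15 after it in Trib3. It was found in 3 of the 10 member windows, against 3.97% of all 32851 promoter windows. The cyclic AMP element lay in 1 of the 10 member windows, 12 bases before the Ppp1r15a start, against 1.79% of all windows. The NR4A element was in 0 of the 10 member windows, against 1.51% of all windows. The windows of Atf4, Atf5, Ddit3, Ddit4 and Sesn2 held none of the 3 letter strings, which says nothing about sites elsewhere in those genes. A match is a run of letters and not a measured binding site.

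The genes lie on 6 chromosomes in the GENCODE annotation of GRCm38. Atf4 is at chr15:80255184-80257541 on the plus strand, on the chromosome that also holds Nr4a1 (chr15:101254269-101274795). Chac1 (chr2:119351229-119354381, plus strand) and Trib3 (chr2:152337422-152344032, minus strand) share chromosome 2, and Ddit3 (chr10:127290774-127296288, plus strand) and Ddit4 (chr10:59949669-59951834, minus strand) share chromosome 10. Atf5 (chr7:44812256-44816658) and Ppp1r15a (chr7:45522916-45526268) lie on the minus strand of chromosome 7, Sesn2 on the minus strand at chr4:132492032-132510501 and Asns on the minus strand at chr6:7675169-7693254. Ddit3 overlaps Mars and Gm4189, Atf5 overlaps Nup62 and Il4i1, and Ppp1r15a overlaps Tulp2, each on the other strand. On the same strand, Sesn2 overlaps Gm12981, and Ddit3 overlaps another gene entry of the same name. Counting by strand could not separate the genes that share a strand. The sources used here do not state whether reads were counted by strand, so reads of these overlapping genes cannot be told apart.

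Per length of exon, Asns had the highest mean level and Trib3 the lowest of the members in both the PV cKO and the PV home cage libraries. As CPM per kb of exon, the mean level in PV cKO libraries was 240.5 ± 19.4 for Asns and 97.0 ± 11 for Atf4, against 117 ± 11.9 and 52.7 ± 14.0 in PV home cage libraries (SD, n = 3 each). Chac1 stood at 54.9 ± 1.40 and Ddit3 at 38.1 ± 3.12 CPM per kb in PV cKO libraries, against 19.1 ± 4.07 and 33.9 ± 2.98 in PV home cage libraries (SD, n = 3 each). The order of levels thus placed Chac1 above Ddit3 in PV cKO libraries and below it in PV home cage libraries. Sesn2 followed in both groups, and Ppp1r15a, Ddit4 and Atf5 lay close together below it, at 3.21 ± 1.08, 2.88 ± 0.702 and 1.77 ± 1.08 CPM per kb in PV home cage libraries (SD, n = 3), levels that do not differ beyond their spread.

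In PV interneurons of cKO mice, the effector enzymes Chac1 and Asns, the inhibitory gene Sesn2 and Atf4 itself had levels about 1.84 to 2.87 times those of home cage mice, with no overlap between the 3 libraries of each group. Ddit3, Ddit4 and Atf5 overlapped between the groups. Leaving out Trib3, which passed the filter on low counts only through the PV cKO group, 7 of 8 members had a positive fold change, with a median log2 fold change of 0.67 against 0.039 over all genes tested. The share of all genes that did not overlap between groups was not counted, here or in the other comparisons. Chac1, Sesn2 and Asns were past a Benjamini-Hochberg adjusted threshold of 0.05 in the edgeR fit, beside 0.139% of the 15150 genes. In that fit 2699 genes had an unadjusted p under 0.05. Because the members were chosen on this comparison, the lack of overlap, the signs, the median and the count of 3 are no test of them. Nothing is read from these values.

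**Figure D1:**
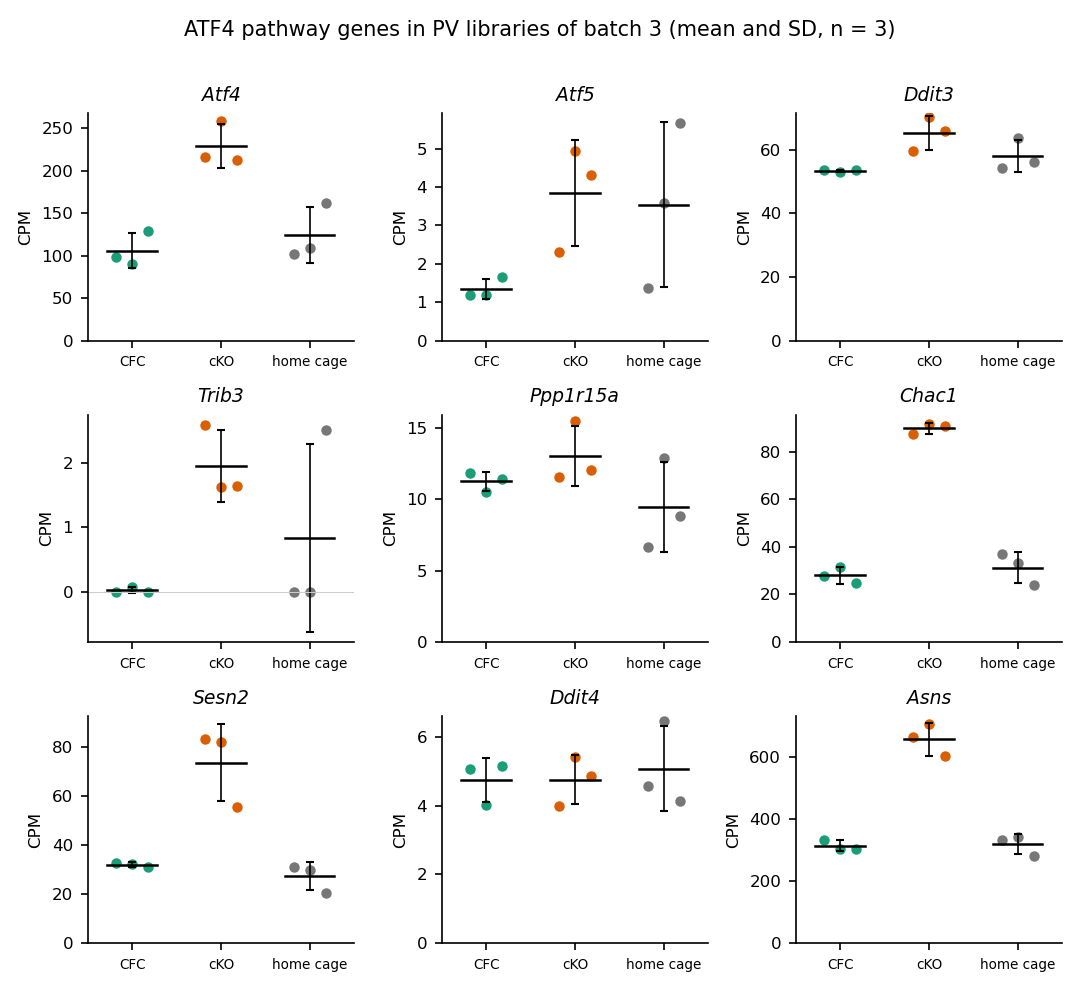
CPM of each member (vertical axes) in the 3 PV CFC, 3 PV cKO and 3 PV home cage libraries of batch 3, with each point 1 library, each bar the group mean and whiskers of 1 SD. The PV cKO points of Atf4, Chac1, Sesn2 and Asns lie above every PV CFC and PV home cage point.

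Atf4, the central transcription factor, had 215, 259 and 212 CPM in PV cKO libraries, against 102, 109 and 162 CPM in PV home cage libraries. Each PV cKO library lay above each home cage library, although home cage replicate 3 stood well above the other two. The log2 fold change was 0.88 ± 0.19 (SE), without home cage replicate 3 it was 1.12 and without home cage replicate 1 it was 0.76. Atf5, a related factor that ATF4 induces, had 2.31, 4.94 and 4.30 CPM in PV cKO libraries, against 1.36, 3.57 and 5.67 CPM in PV home cage libraries. The groups overlapped throughout their range. Ddit3, which encodes the pro-death factor CHOP, had 59.7, 70.3 and 65.9 CPM in PV cKO libraries, against 54.2, 63.8 and 56.0 CPM in PV home cage libraries. The highest home cage library lay above the lowest cKO library, and the log2 fold change was 0.17 ± 0.13 (SE).

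Chac1 encodes an enzyme that breaks down glutathione. It had 87.3, 91.6 and 90.7 CPM in PV cKO libraries, against 36.8, 33.1 and 23.9 CPM in PV home cage libraries, a log2 fold change of 1.52 ± 0.17 (SE). The 3 cKO libraries were close to each other and all far above the home cage libraries. Asns, which makes asparagine from aspartate and glutamine, had 663, 708 and 602 CPM in PV cKO libraries, against 333, 344 and 283 CPM in PV home cage libraries, a log2 fold change of 1.04 ± 0.12 (SE). Each group was tight and the 2 did not overlap. Both genes hold a letter match to the composite site in the promoter stretches printed above, as does Trib3, whose groups overlapped. The windows of Sesn2 and Atf4 held no such match, and a link between match and level was not tested.

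Sesn2 restrains the growth kinase complex mTORC1 and senses leucine. It had 83.1, 82.0 and 55.5 CPM in PV cKO libraries, against 31.3, 29.8 and 20.7 CPM in PV home cage libraries, a log2 fold change of 1.42 ± 0.20 (SE). Replicate 3 was the lowest of its group in both, and the groups did not overlap. Without home cage replicate 2 the fold change was 1.49 and without PV cKO replicate 1 it was 1.33, and Sesn2 was then no longer past the threshold. Ppp1r15a, which encodes the eIF2 phosphatase subunit GADD34 that ends the response, had 11.6, 15.4 and 12.0 CPM in PV cKO libraries, against 6.62, 12.9 and 8.83 CPM in PV home cage libraries, a log2 fold change of 0.47 ± 0.26 (SE). Here home cage replicate 2 lay within the cKO range. Ddit4, another restraint on mTORC1, had 3.98, 5.40 and 4.85 CPM in PV cKO libraries, against 4.58, 6.46 and 4.14 CPM in PV home cage libraries, and the groups overlapped.

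Trib3, a pseudokinase that ATF4 and CHOP induce and that inhibits both, was at the edge of detection. It had 74, 39 and 36 counts in PV cKO libraries, against 0, 0 and 23 counts in PV home cage libraries. In CPM that is 2.59, 1.62 and 1.65 in PV cKO libraries and 2.51 in home cage replicate 3, so the groups overlapped through that 1 library. The 2 home cage libraries with no counts allow up to 0.146 and 0.206 CPM each, taking 3 counts as the limit and counting error alone. No fold change is given for Trib3.

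Other values moved with the PV cKO group, and their part in these results was not tested. The summed level of 10 oligodendrocyte lineage markers was between 414.6 and 987.9 CPM in PV cKO libraries, against 223.1 to 406.4 CPM in PV home cage libraries, with 9 of 10 markers positive and 0 past the threshold. Microglia markers summed to between 29.98 and 46.37 CPM in PV cKO libraries, against 25.23 to 28.35 CPM in PV home cage libraries. The ribosomal RNA gene CT010467.1 had 7345, 11719 and 9670 CPM in PV cKO libraries, against 13750, 25810 and 50607 CPM in PV home cage libraries, the highest being home cage replicate 3. The Y-linked gene Ddx3y was at 26.4 CPM or more in 1 of 3 PV cKO and 2 of 3 PV home cage libraries, and at 0.245 CPM or less in the others. PV cKO replicate 3, whose Pvalb level was that of home cage libraries, had 212 CPM of Atf4, 90.7 CPM of Chac1, 55.5 CPM of Sesn2 and 602 CPM of Asns. Each was above every home cage library. The same library had the highest oligodendrocyte lineage (987.9 CPM) and microglia (46.37 CPM) sums of its group. Its vascular (286.6 CPM) and astrocyte (886.9 CPM) sums were also the highest, against 120.6 to 149.3 CPM and 578.4 to 764.1 CPM in home cage libraries. The part of cell mixture in its member levels was not tested.

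Genes around the members in the pathway were read from lists of known ATF4 targets and of neighbouring stress pathways. These lists too were drawn up with the PV cKO results known, so their counts past the threshold are a description, beside 0.139% of all 15150 genes. In the amino acid synthesis and one-carbon list, leaving out Aldh1l2, which passed the filter only through the PV cKO group, 11 of 14 genes were positive and 5 were past the threshold, each higher in PV cKO libraries, with a median log2 fold change of 1.07. Phgdh, which opens serine synthesis, had 34.5, 37.8 and 30.2 CPM in PV cKO libraries, against 3.41, 5.29 and 4.14 CPM in PV home cage libraries, a log2 fold change of 3.00 ± 0.28 (SE). Psat1, the next serine enzyme, had 96.4, 108 and 93.0 CPM in PV cKO libraries, against 28.3, 22.9 and 23.1 CPM in PV home cage libraries, a log2 fold change of 2.00 ± 0.17 (SE). Neither gene overlapped between the groups. Mthfd2 and Shmt2, mitochondrial enzymes of one-carbon metabolism, had log2 fold changes of 1.45 ± 0.17 and 1.39 ± 0.18 (SE).

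Among the amino acid transporters that passed the filter without the PV cKO group, 8 of 10 were positive and 1 was past the threshold. Slc7a3, a carrier of cationic amino acids that passed it only through the PV cKO group, had 14.5, 9.59 and 9.66 CPM in PV cKO libraries, from 415, 231 and 211 counts, against 0 counts in each of the 3 PV home cage libraries. The mean of the PV cKO libraries was at least 165-fold above 0.0678 CPM, which is 3 counts pooled over the whole home cage group. That pooled floor covers counting error and not variation between libraries. Taken by library, the floor of 3 counts was 0.146, 0.206 and 0.327 CPM. PV CFC libraries of the same batch had 15, 0 and 11 counts of Slc7a3, up to 0.683 CPM. Slc7a5, which carries large neutral amino acids, had 122, 110.4 and 122 CPM in PV cKO libraries, against 43.5, 58.6 and 31.7 CPM in PV home cage libraries, a log2 fold change of 1.39 ± 0.20 (SE). Its groups did not overlap.

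Of the cytosolic tRNA synthetases, 17 of 19 tested were positive, with 2 past the threshold and a median log2 fold change of 0.61. Against the same home cage libraries, PV CFC libraries had 18 of 19 positive, with 0 past the threshold and a median of 0.30. Set directly against PV cKO libraries, PV CFC libraries had a median of -0.18, with 4 of 19 positive and 0 past the threshold. Vars, which charges valine tRNA, had a log2 fold change of 1.10 ± 0.16 (SE), and Mars, which charges methionine tRNA and overlaps Ddit3 on the other strand, one of 1.08 ± 0.16 (SE). Mars had 100.2, 101 and 98.2 CPM in PV cKO libraries, against 55.3, 50.9 and 34.6 CPM in PV home cage libraries. Among 20 other ATF4 targets tested, 18 were positive and 0 were past the threshold, with a median log2 fold change of 0.50. The stress protein gene Nupr1 had 15.1, 20.7 and 13.1 CPM in PV cKO libraries, against 3.56, 5.91 and 6.00 CPM in PV home cage libraries. The tRNA exporter gene Xpot had a log2 fold change of 0.82 ± 0.19 (SE).

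The neighbouring pathways had medians nearer that of all genes, which was 0.039. The ATF6 and XBP1 arm of the unfolded protein response had 15 of 24 genes positive and a median log2 fold change of 0.12 in PV cKO libraries, with 0 past the threshold. The mitochondrial unfolded protein response had 8 of 11 positive and a median of 0.31, again with 0 past the threshold. The eIF2 kinases and eIF2 machinery had 12 of 16 positive and a median of 0.08, glucocorticoid-responsive genes 6 of 13 and a median of -0.05, and mTORC1 pathway genes 8 of 14 and a median of 0.04, each with 0 past the threshold.

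**Figure D2:**
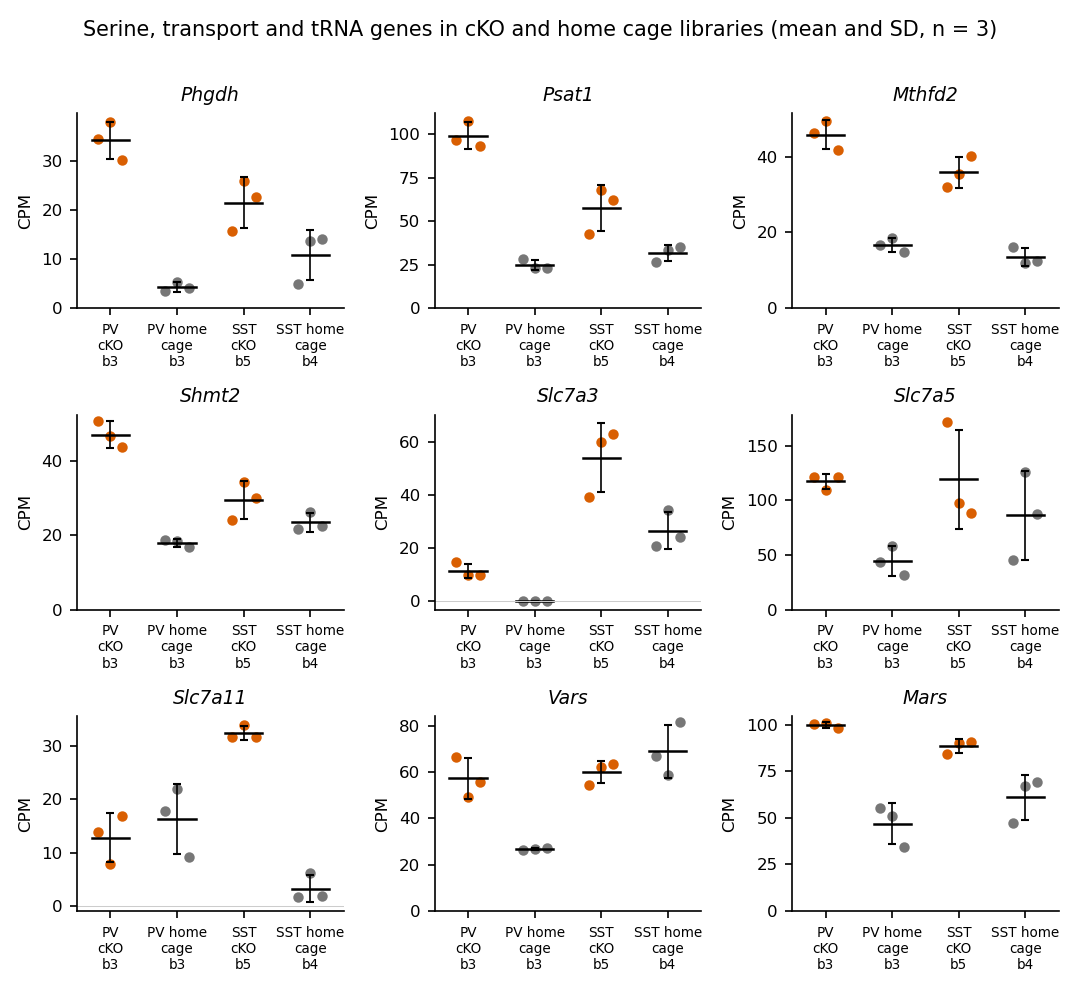
CPM (vertical axes) of 9 pathway genes in the 3 libraries each of PV cKO and PV home cage (batch 3) and of SST cKO (batch 5) and SST home cage (batch 4), with each point 1 library, a bar at the group mean and whiskers of 1 SD. Phgdh, Psat1 and Slc7a3 lie higher in every PV cKO library than in any PV home cage library, and Slc7a11 lies above 31 CPM in SST cKO libraries and below 7 CPM in SST home cage libraries.

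After fear conditioning, the PV libraries did not show the high levels of Chac1, Sesn2, Asns and Atf4 seen in PV cKO libraries. CFC and cKO share the home cage libraries, and the members were chosen on those libraries, so values are given side by side, with no p. Chac1 had 27.7, 31.7 and 24.6 CPM in PV CFC libraries, within the spread of the home cage libraries. Sesn2 had 32.9, 32.3 and 30.9 CPM, Asns 334, 304 and 305 CPM and Atf4 98.3, 89.7 and 129 CPM in PV CFC libraries. Each of these 4 genes had its highest PV CFC library below its lowest PV cKO library, as did Atf5, Ddit3 and Trib3. The share of all genes that do so was not counted. Against home cage, leaving out Trib3, 2 of 8 members had positive log2 fold changes, with a median of -0.11. On the genes that passed the filter without the PV cKO group, the synthesis list had 11 of 14 positive and a median of 0.27. Transporters had 6 of 10 and a median of 0.10, other ATF4 targets 10 of 20 and 0.04, and the eIF2 list 13 of 16 and 0.22. The ATF6 and XBP1 arm had 17 of 24 and 0.16, and the mitochondrial unfolded protein response 8 of 11 and 0.22, beside 0.021 over all genes. As a description, 0 members were past the threshold in the edgeR fit, beside 0% of 15150 genes, with 2834 genes at an unadjusted p under 0.05 and 745 called by DESeq2. Without PV home cage replicate 1, 1481 genes were called and Atf5 was among them, at a log2 fold change of -1.77.

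Ddit3 had 53.5, 53.1 and 53.5 CPM in PV CFC libraries, against 54.2, 63.8 and 56.0 CPM in PV home cage libraries, so each CFC library lay just under the home cage range. Atf5 had 1.18, 1.18 and 1.65 CPM in PV CFC libraries, against 1.36, 3.57 and 5.67 CPM in PV home cage libraries, with 1 CFC library inside the home cage range. Trib3 had 0, 2 and 0 counts in PV CFC libraries. Set against PV cKO libraries, PV CFC libraries had log2 fold changes of -1.68 ± 0.17 for Chac1, -1.20 ± 0.20 for Sesn2, -1.06 ± 0.12 for Asns and -1.11 ± 0.19 for Atf4 (SE). Leaving out Trib3, 0 of 8 members were positive. The 3 past the threshold in this fit, beside 0.132% of all genes, restate the choice of members on the PV cKO libraries and are no test of them.

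In SST interneurons of cKO mice, Atf4 and Asns were higher than in home cage mice, and the other 7 members did not pass the test. Of the 9 members, 2 were called, both higher, by edgeR's quasi-likelihood test with Benjamini-Hochberg adjustment, where the background was 8.1% of 15453 genes in either direction and 3.51% higher. Leaving out Trib3, which passed the filter only through the SST cKO group, the median log2 fold change was 0.32, against 0.021 over all genes, and 6 of 8 members were positive. The SST cKO libraries are batch 5 and the SST home cage libraries batch 4, so batch and genotype cannot be told apart in any of these values.

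**Figure D3:**
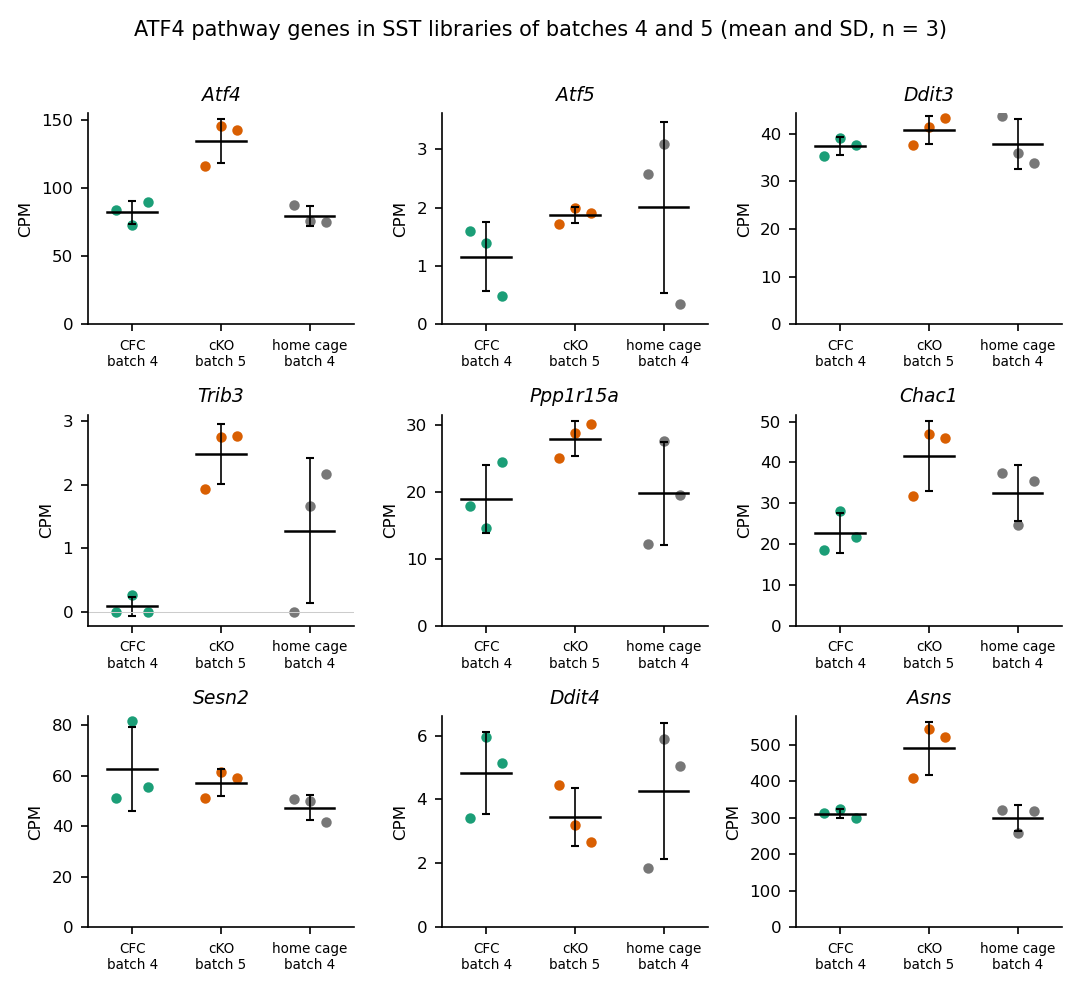
CPM of each member (vertical axes) in the 3 SST CFC libraries of batch 4, the 3 SST cKO libraries of batch 5 and the 3 SST home cage libraries of batch 4, with each point 1 library, each bar the group mean and whiskers of 1 SD. The SST cKO points of Atf4 and Asns lie above every SST home cage point.

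Atf4 had 116, 145 and 142 CPM in SST cKO libraries, against 87.7, 75.8 and 74.9 CPM in SST home cage libraries. The groups did not overlap, and the log2 fold change was 0.76 ± 0.12 (SE) with an edgeR adjusted p of 0.00452. Asns had 408, 544 and 520.2 CPM in SST cKO libraries, against 321, 259.5 and 319 CPM in SST home cage libraries. Again each SST cKO library lay above each home cage library, with a log2 fold change of 0.71 ± 0.12 (SE) with an edgeR adjusted p of 0.00589. Both calls held under each of the 11 alternatives run, with log2 fold changes between 0.70 and 0.86 for Atf4 and between 0.62 and 0.83 for Asns.

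Sesn2 and Chac1 did not pass the test in SST cKO, and the difference of the cKO response between the cell types was not tested. Sesn2 had 51.2, 61.6 and 58.9 CPM in SST cKO libraries, against 50.6, 49.8 and 41.5 CPM in SST home cage libraries, a log2 fold change of 0.28 ± 0.18 (SE) with an edgeR adjusted p of 0.422. The lowest SST cKO library lay just above the highest home cage library. Chac1 had 31.7, 46.9 and 46.0 CPM in SST cKO libraries, against 37.4, 24.7 and 35.4 CPM in SST home cage libraries, a log2 fold change of 0.35 ± 0.22 (SE) with an edgeR adjusted p of 0.417. Its groups overlapped through SST cKO replicate 1.

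The remaining members overlapped between SST cKO and SST home cage libraries. Ppp1r15a had 25.1, 28.9 and 30.2 CPM in SST cKO libraries, against 12.3, 27.6 and 19.5 CPM in SST home cage libraries, a log2 fold change of 0.50 ± 0.28 (SE) with an edgeR adjusted p of 0.355. Ddit3 had 37.6, 41.5 and 43.4 CPM in SST cKO libraries, against 43.7, 36.0 and 33.8 CPM in SST home cage libraries. Ddit4 had 4.46, 3.20 and 2.68 CPM in SST cKO libraries, against 1.87, 5.88 and 5.05 CPM in SST home cage libraries. Trib3 had 46, 66 and 68 counts in SST cKO libraries, against 0, 28 and 44 counts in SST home cage libraries, which is 1.94, 2.74 and 2.76 CPM against up to 2.18 CPM. Its SST home cage replicate 1, with no counts, allows up to 0.175 CPM, and Atf5 lay between 1.73 and 2.00 CPM in SST cKO libraries, against 0.346 to 3.09 CPM in SST home cage libraries.

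The amino acid synthesis and transporter lists also held called genes in SST cKO, counts that stand beside 8.1% called over all genes and 3.51% called higher. Of the synthesis list, 9 of 15 tested were positive and 3 were called, all higher. Mthfd2 had 32.1, 35.4 and 40.2 CPM in SST cKO libraries, against 16.2, 12.0 and 12.4 CPM in SST home cage libraries, a log2 fold change of 1.41 ± 0.21 (SE) with an edgeR adjusted p of 0.00359. Psat1 and Pycr1, which makes proline, were also higher, at log2 fold changes of 0.86 (adjusted p = 0.0188) and 1.38 (adjusted p = 0.0481). Of the transporters that passed the filter without the SST cKO group, 10 of 10 were positive and 2 were called. Slc7a3 was higher at a log2 fold change of 1.03 (adjusted p = 0.0472, edgeR). Slc7a11, the cystine and glutamate exchanger, had 31.6, 33.9 and 31.6 CPM in SST cKO libraries, against 1.81, 6.18 and 1.88 CPM in SST home cage libraries, a log2 fold change of 3.30 ± 0.51 (SE) with an edgeR adjusted p of 0.00383. In PV libraries the same gene had 13.8, 7.89 and 16.8 CPM in cKO mice, against 17.9, 22.0 and 9.16 CPM in home cage mice, with the groups overlapping.

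The other lists held genes called in both directions, in 1 direction or not at all in SST cKO. Of 19 tRNA synthetases, 14 were positive, 2 were called higher (Cars and Mars, at log2 fold changes of 0.70 and 0.53) and 2 lower (Hars and Qars, at -0.41 and -0.44). Of 19 other ATF4 targets that passed the filter without the SST cKO group, 17 were positive and 0 were called. The ATF6 and XBP1 arm had 14 of 24 positive and 2 called, both lower. A share of 2 in 24 is near the 8.1% called in either direction, and 709 of all 15453 genes were called lower. The chaperone gene Hyou1 had 40.6, 49.9 and 46.8 CPM in SST cKO libraries, against 88.4, 82.5 and 74.6 CPM in SST home cage libraries, a log2 fold change of -0.84 (adjusted p = 0.00214, edgeR), and Manf, a secreted stress factor gene, had one of -0.59 (adjusted p = 0.0159, edgeR). Of the eIF2 list, 3 of 16 genes were called higher, the eIF2 subunit genes Eif2s2 and Eif2s1 at log2 fold changes of 0.60 and 0.43 and Impact at 0.56, and 1 lower, the exchange factor subunit Eif2b2 at -0.52. In the mitochondrial unfolded protein response, 1 of 11 genes was called higher (Hspa9, at 0.34) and 1 lower (Hspe1, at -0.46). Of the glucocorticoid-responsive genes, 1 of 13 was called higher (Tsc22d3, at 0.37) and 1 lower (the metallothionein gene Mt1, at -1.02). Of the mTORC1 pathway genes, 2 of 14 were called, both lower (Akt1s1 at -0.56 and Rps6 at -0.31), and of the rapid activity-induced genes 4 of 16 were positive and 0 were called.

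Cell type and RNA measures also differed between SST cKO and SST home cage libraries, and their part in the results was not tested. Sst itself had 3061, 2955 and 3399 CPM in SST cKO libraries, against 5975, 5515 and 5898 CPM in SST home cage libraries. Of the 10 SST interneuron markers, Sst included, 6 were positive, 4 were negative and 2 were called lower, with a median log2 fold change of 0.05. Their sum was between 9308 and 10720 CPM in SST cKO libraries, against 12760 to 13970 CPM in SST home cage libraries. Excitatory neuron markers summed to between 398.8 and 420.8 CPM in SST cKO libraries, against 671.4 to 833.9 CPM in SST home cage libraries, and oligodendrocyte lineage markers to between 718.6 and 814.5 CPM, against 1069 to 1530 CPM. Microglia markers summed to between 20.58 and 28.4 CPM in SST cKO libraries, against 45.25 to 65.26 CPM in SST home cage libraries, and astrocyte markers to between 318.9 and 336.6 CPM, against 412.2 to 573.9 CPM. Vascular markers summed to 1220, 53.38 and 51.08 CPM in SST cKO libraries, against 131.2 to 638.5 CPM in SST home cage libraries. SST cKO replicate 1, which stood apart in that sum, was also the lowest SST cKO library for Atf4, Asns and Chac1, and without it the log2 fold changes were 0.86 for Atf4 and 0.83 for Asns. CT010467.1 had 493, 337 and 337 CPM in SST cKO libraries, against 6560, 7274 and 5040 CPM in SST home cage libraries.

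After fear conditioning, 0 of the 8 members tested in SST libraries passed the test, where the background was 0.0411% of 14614 genes by edgeR, with 814 genes at an unadjusted p under 0.05 and 102 called by DESeq2. Sesn2 had 50.9, 81.6 and 55.3 CPM in SST CFC libraries, against 50.6, 49.8 and 41.5 CPM in SST home cage libraries, a log2 fold change of 0.40 ± 0.19 (SE) with an edgeR adjusted p of 0.928. The groups did not overlap, but only CFC replicate 2 stood well above home cage. Chac1 had 18.5, 28.1 and 21.8 CPM in SST CFC libraries, against 37.4, 24.7 and 35.4 CPM in SST home cage libraries, a log2 fold change of -0.52 ± 0.23 (SE) with an edgeR adjusted p of 0.896. Atf4 had 83.5, 73.1 and 89.8 CPM and Asns 312, 323 and 299.7 CPM in SST CFC libraries, both overlapping with home cage. Trib3 had 0, 4 and 0 counts in SST CFC libraries and did not pass the filter there. Vascular markers summed to between 52.82 and 76.87 CPM in SST CFC libraries, against 131.2 to 638.5 CPM in SST home cage libraries, with 0 of 13 positive and 1 called lower. Of the astrocyte and oligodendrocyte lineage markers 0 of 8 and 0 of 10 were positive, and of the microglia markers 1 of 8, with 0 called in each, and the part of these shifts in the member values was not tested.

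After PTZ, most members overlapped with saline, with Ppp1r15a in PV libraries as the exception by value. In PV libraries 0 of 8 members tested passed edgeR's test, where the background was 0.0294% of 13596 genes, with 1874 genes at an unadjusted p under 0.05 and 214 called by DESeq2. Ppp1r15a had 10.1, 13.0, 11.3 and 9.96 CPM in PV PTZ libraries, against 4.51, 3.82 and 4.19 CPM in PV saline libraries of batch 1. The groups lay far apart, at a ratio of means of 2.66 and a log2 fold change of 1.41 ± 0.25 (SE) with an edgeR adjusted p of 0.159. DESeq2 called the same gene, against a background of 1.57%, with an adjusted p of 5.92e-05, and over the alternatives its adjusted p was between 5.92e-05 and 0.707.

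**Figure D4:**
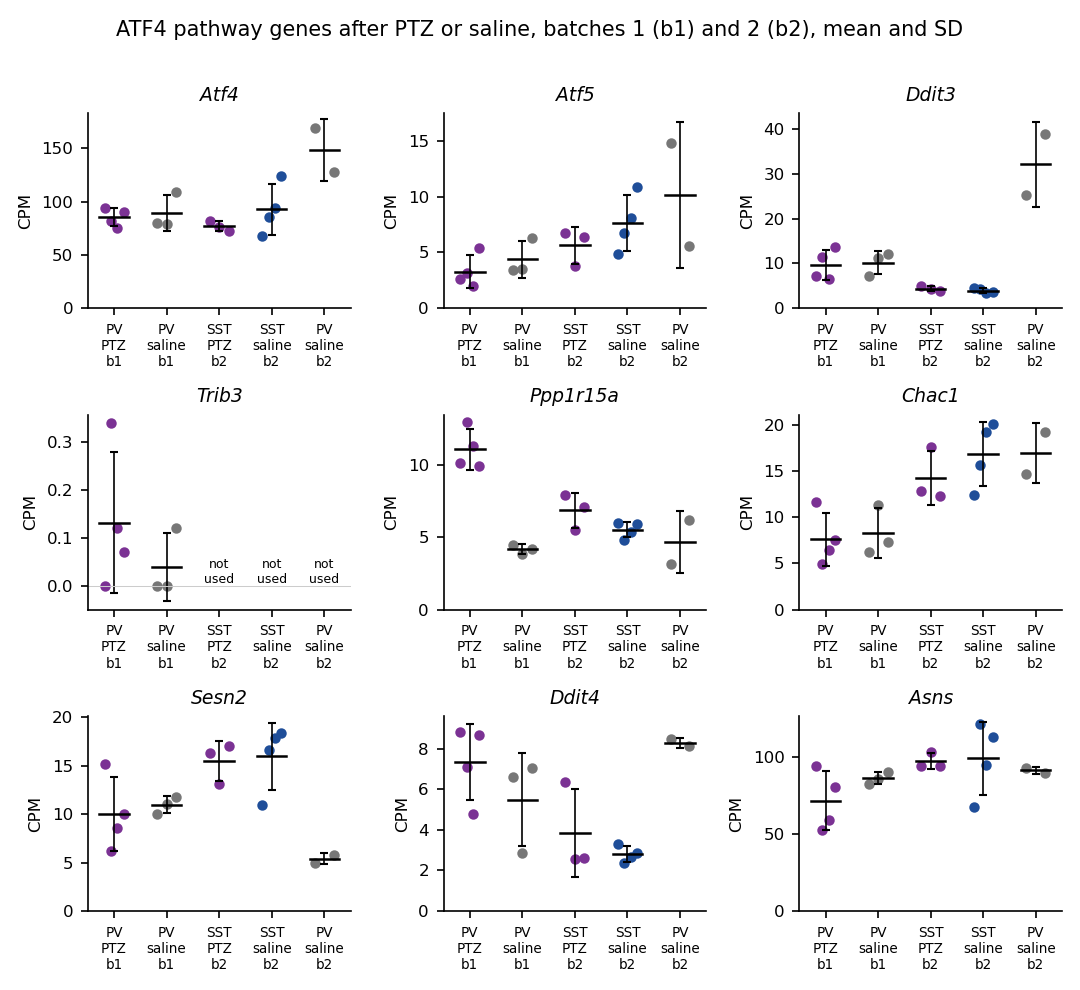
CPM of each member (vertical axes) in PV PTZ and PV saline libraries of batch 1 and in SST PTZ, SST saline and PV saline libraries of batch 2, with each point 1 library, each bar the group mean and whiskers of 1 SD. The Ppp1r15a points of PV PTZ libraries, 9.96 CPM or more, lie above those of PV saline libraries, 4.51 CPM or less.

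The other members overlapped between PV PTZ and PV saline. Asns had 94.1, 52.7, 59.0 and 80.7 CPM in PV PTZ libraries, against 82.8, 86.1 and 90.5 CPM in PV saline libraries. Atf4 had 94.0, 82.1, 75.1 and 90.5 CPM in PV PTZ libraries, against 79.5, 78.9 and 109 CPM in PV saline libraries. The PTZ libraries of Asns were more spread than the saline ones, and those of Atf4 were not. Chac1 lay between 4.92 and 11.6 CPM in PV PTZ libraries, against 6.26 to 11.3 CPM in PV saline libraries, and Ddit3 between 6.54 and 13.7 CPM, against 7.18 to 12.1 CPM. Sesn2, Ddit4 and Atf5 also overlapped, and Trib3 had 0, 6, 2 and 1 counts in PV PTZ libraries, against 0, 0 and 2 counts in PV saline libraries. Microglia markers summed to between 56.5 and 371.8 CPM in PV PTZ libraries, against 29.01 to 103.4 CPM in PV saline libraries, and vascular markers to between 90.11 and 180.7 CPM, against 35.96 to 67.22 CPM. Pvalb was between 40.3 and 128 CPM in PV PTZ libraries, against 15.9 to 22.1 CPM in PV saline libraries. It was the 1 positive gene of 10 PV interneuron markers, of which 9 were negative and 0 were called. Those 10 markers summed to between 2766 and 6993 CPM in PV PTZ libraries, against 6077 to 9723 CPM in PV saline libraries. The part of these differences in the Ppp1r15a values was not tested.

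In SST libraries 0 of the 8 members tested passed after PTZ, where the background was 0.144% of 11784 genes by edgeR, with 511 genes at an unadjusted p under 0.05 and 38 called by DESeq2. Ppp1r15a had 7.95, 5.55 and 7.14 CPM in SST PTZ libraries, against 5.99, 4.84, 5.40 and 5.91 CPM in SST saline libraries, a log2 fold change of 0.31 ± 0.26 (SE) with an edgeR adjusted p of 0.989. The lowest PTZ library lay within the saline range. The PTZ response of Ppp1r15a in SST minus that in PV libraries was -1.14 ± 0.35 on the log2 scale (SE), with an unadjusted p of 0.00485 and an adjusted p of 0.82 by edgeR. That difference did not pass, nor did that of the other members, where the background was 0% of 11743 genes, with 602 genes at an unadjusted p under 0.05 and 1 called by DESeq2. The 2 responses come from different batches, so cell type and batch cannot be told apart in their difference. Asns, at 94.4, 103 and 94.3 CPM in SST PTZ libraries, against 67.5, 122, 94.9 and 113 CPM in SST saline libraries, stayed inside the saline range.

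Between the cell types after saline, within batch 2, the members split. Ddit3, Ddit4 and Atf4 were lower in SST than in PV libraries and Sesn2 was higher, so 4 of 8 members tested were called by edgeR, where the background was 53.1% of 11784 genes. A share of 4 in 8 is near that background. Ddit3 had 4.54, 4.22, 3.40 and 3.51 CPM in SST saline libraries, against 25.4 and 38.9 CPM in PV saline libraries, a log2 fold change of -3.03 ± 0.24 (SE) with an edgeR adjusted p of 1.87e-06. The groups were far apart. Ddit4 had 3.33, 2.36, 2.66 and 2.87 CPM in SST saline libraries, against 8.47 and 8.12 CPM in PV saline libraries, a log2 fold change of -1.56 ± 0.39 (SE) with an edgeR adjusted p of 0.00582.

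Sesn2 had 10.9, 16.6, 17.8 and 18.4 CPM in SST saline libraries, against 4.99 and 5.77 CPM in PV saline libraries, a log2 fold change of 1.57 ± 0.29 (SE) with an edgeR adjusted p of 0.000725. Each SST library lay above both PV libraries. Atf4 had 67.2, 85.8, 93.7 and 124 CPM in SST saline libraries, against 169 and 128 CPM in PV saline libraries, a log2 fold change of -0.68 ± 0.20 (SE) with an edgeR adjusted p of 0.0143. The highest SST library came close to the lower PV library, and without PV saline replicate 1 the log2 fold change was -0.47 and the call was lost (adjusted p = 0.117, edgeR). Chac1, Asns, Atf5 and Ppp1r15a did not pass, with log2 fold changes of -0.00, 0.12, -0.44 and 0.27. The PV saline libraries of batch 2 had totals of 6161764 and 4933110 counts, below those of the SST saline libraries (13763931 to 18367658). Vascular markers summed to between 22.86 and 51.79 CPM in SST saline libraries, against 2.352 to 13.16 CPM in PV saline libraries, with 8 of 8 positive and 5 called higher. Astrocyte markers summed to between 202.2 and 207.8 CPM, against 441.2 to 586.1 CPM, with 3 called lower, and the part of these differences was not tested. In the PV saline libraries of batch 1, a table made and scaled separately, Ddit3 had 7.18, 11.2 and 12.1 CPM.

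**Figure D5:**
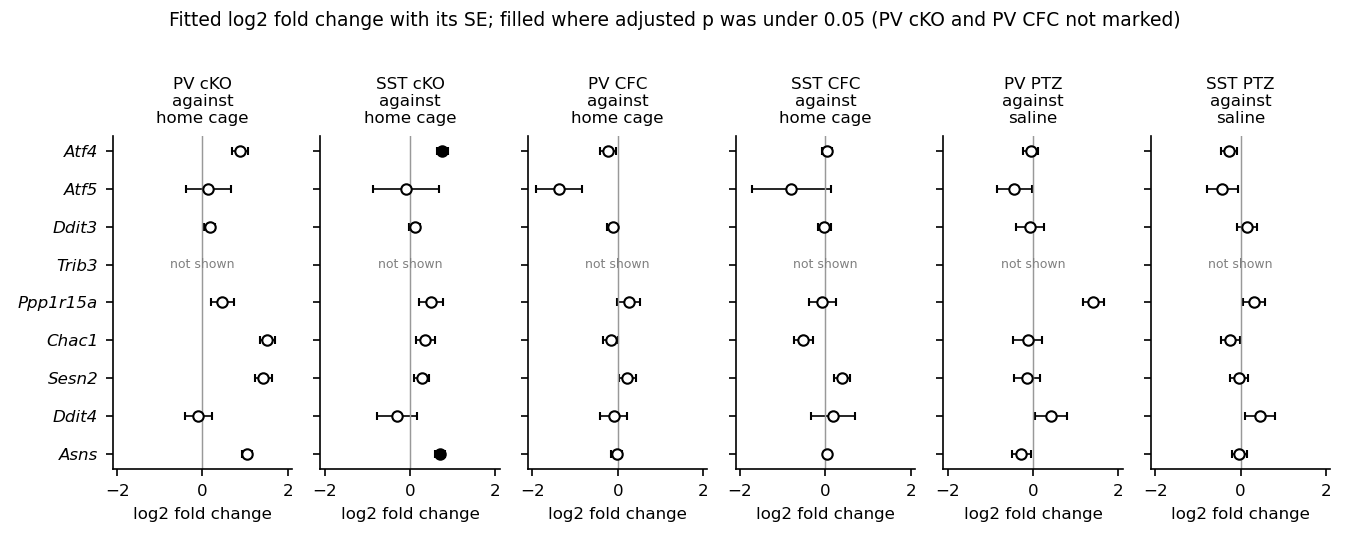
Log2 fold change with its SE (horizontal axes) of each member but Trib3 in PV and SST cKO against home cage, PV and SST CFC against home cage and PV and SST PTZ against saline, with each point 1 gene and filled where the edgeR adjusted p was under 0.05, which is not marked for PV cKO and PV CFC. Chac1, Sesn2, Asns and Atf4 stand at 1.52, 1.42, 1.04 and 0.88 in PV cKO, and the filled points are Atf4 at 0.76 and Asns at 0.71 in SST cKO.

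Genes most like the members over the 34 libraries were found by correlating each gene's batch-centred log2(CPM + 1) with the mean of the members, over 8009 genes listed in all 5 tables at 5 CPM or more in each batch. The highest was Psph, the last enzyme of serine synthesis, at a Pearson correlation of 0.781, and it was 0.532 over the 25 libraries outside batch 3. Psph had 51.6, 46.8 and 45.7 CPM in PV cKO libraries, against 23.7, 20.7 and 19.5 CPM in PV home cage libraries. Next came Yars, which charges tyrosine tRNA, at 0.734 (0.704 outside batch 3), Bcar1 at 0.73 (0.688), Ndufs5 at 0.721 (0.376), Psat1 at 0.716 (0.214) and Morf4l1 at 0.652 (0.649). Yars, Bcar1 and Morf4l1 kept values near those over all libraries once the batch with the PV cKO libraries was left out, and Psat1 and Ndufs5 did not. These genes were picked over all 34 libraries, which include those 25, so the kept values are no independent check. Each batch was centred separately. The difference between SST cKO and SST home cage libraries, which lie in different batches, is therefore not in these correlations. Within batch 2, the batch-centred member mean was 0.319 and 0.338 in PV saline libraries, against -0.315 to 0.123 in SST libraries. Yars had 137 and 123 CPM in those PV libraries, against 60.0 to 89.3 CPM in SST libraries. Bcar1 had 58.8 and 82.1 CPM, against 25.8 to 31.9 CPM, and Morf4l1 226 and 354 CPM, against 118 to 172 CPM. The part of cell type in these correlations was not tested. Libraries of 1 batch share their preparation and depth range, and the correlations are a description with no test.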

How the data were processed

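Ribosome-associated mRNA was measured by RNA-seq in 34 libraries of 11 groups and 5 batches, grouped by their labels. For batch 1 the authors deposited each gene's expected count, of which 11.3% were not whole and were rounded here. For batches 2 to 5 the deposited values are raw gene counts, whole in every cell. The submitters' processing notes name cutadapt 1.18, STAR 2.5.2a, HTSeq 0.11.0 and DESeq2, with the builds mm10 and GRCm39, and no role, order or batch, so promoter and gene coordinates on GRCm38 are of the reference and not of the files. No per-sample column was left unmapped. No 2 replicates held identical values, and the closest of 37 replicate pairs differed beyond sampling noise (chi-square per degree of freedom 6.177).

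CPM are counts per 1000000 of the library total scaled by TMM factors. Tests were edgeR 4.0.16 quasi-likelihood F tests in R 4.3.3, two-sided, on all libraries of a table after filterByExpr (minimum count 10, minimum total 15), with Benjamini-Hochberg adjustment over all genes tested and a threshold of 0.05. SST cKO against home cage joined batches 4 and 5, and the PTZ difference joined batches 1 and 2. Alternatives were DESeq2 1.42.0, limma 3.58.1 voom, other size factors, no filter, the compared groups alone, each replicate left out and a replicate block. Floors cover counting error only. The SE of a log2 fold change is its size divided by the square root of the edgeR F statistic. It therefore includes variation among libraries, as the SD does.

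All 9 members are named throughout. In the cKO comparisons the rule for pathway lists was to name called genes, up to 4 by smallest p, or up to 2 where none passed. A few values of other genes were named after they were seen: Slc7a11 in PV libraries, CT010467.1, Ddx3y and Psph. The members and lists were chosen with earlier results of these data known. Replicate numbers shared between groups did not pair the libraries.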

Additional observations from a re-analysis of the deposited data

How the results depend on the processing

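Over 966 member values under alternatives, 868 kept their direction and their side of the threshold, 11 lost a call, 13 gained one, 74 uncalled values changed sign and 0 called values reversed. The number of members called was 1 by DESeq2, against 0, in PV PTZ (Ppp1r15a). In PV CFC against home cage it was 1 with no filter on low counts (Trib3), against 0, and between 0 and 1 with a replicate left out (Atf5, at -1.77, without PV home cage replicate 1). In PV CFC against PV cKO, a description because the members were chosen on the PV cKO libraries, it was 5 with no filter, 4 with the replicate block and between 1 and 3 with a replicate left out, against 3. With a replicate left out it was between 2 and 4 in PV cKO, 2 and 2 in SST cKO and 3 and 4 in SST against PV saline, and 0 in the other comparisons. In PV cKO, Chac1 and Asns were called under 12 of 12 alternatives, Sesn2 under 9 and Atf4 under 4. These counts too are a description and no test of the members, because the alternatives rerun the comparison on which they were chosen. Sesn2 lost its call with the compared groups alone, without home cage replicate 2 and without PV cKO replicate 1, and Atf4 gained one by DESeq2, with no filter and without home cage replicate 1 or 3. The cause was not tested.

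Genes called over whole tables moved more. In PV cKO 21 became 669 by DESeq2, 1072 with no filter, 10 with the compared groups alone, 27 with the replicate block and between 7 and 1224 with a replicate left out, the highest without PV home cage replicate 1. In PV CFC against home cage 0 became 745 by DESeq2, 1032 with no filter, 2 with the compared groups alone, 2 with the block and between 0 and 1481, again highest without PV home cage replicate 1. In PV CFC against PV cKO 20 became 87 by DESeq2, 208 with no filter and between 4 and 15. In PV PTZ 4 became 214 by DESeq2, 2 with the block and between 0 and 14. In SST PTZ 17 became 38 by DESeq2 and 8 with the block, and in SST CFC 6 became 102 by DESeq2, 2 with the block and between 1 and 37. In SST cKO 1252 became 2126 by DESeq2, 412 without SST cKO replicate 3 and 426 without SST cKO replicate 2, with 1292 as the highest, and with no filter 728 were higher and 554 lower, against 543 and 709. Replicate numbers did not pair the libraries (correlations between -0.237 and 0.241), and the block changed the number of members called only in PV CFC against PV cKO. No paired analysis was possible for SST cKO because its groups are in different batches. Of the 6 genes most like the members, 6 were the same at a pseudocount of 0.5 and 3 by Spearman's correlation. On the plus strand alone a match to the composite promoter site was in 1 window, against 2.12% of all windows. Over 17 sets of 4 libraries (1 member in 1 group each), Dixon's test set 0 libraries apart from the rest.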
